A study of Mus musculus with 16 samples.

Results

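Sash3, Sla, Lck, Cd28, Cd40, Cd80 and Cd86 are 7 genes best known from lymphocytes and from the contact between a T cell and the cell that presents antigen to it. They were followed by RNA sequencing in RAW264.7, an established mouse macrophage-like line, and picked by gene symbol out of 55573 gene records. All 7 passed the low-count filter, as did 13107 records in all. These genes were selected on earlier results from the same libraries, and which values led to the choice is not recorded. Their own differences are therefore descriptions. Where calls are counted for them, the calls come from the fit over all tested genes, and nothing is supported by them.

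The 16 libraries formed 4 groups of 4. Parental is the RAW264.7 line with no construct named, and its library names begin with "Ctrl". The labels give the other groups the genotypes CDC50A KD, ATP11A/C KD and ORP5/8 KD, where KD stands for knockdown. Their library names begin with "sh", and the labels do not say whether each is 1 clone. A non-targeting construct is named for none of the libraries used here. Every group was grown in complete medium without a named stimulus, cargo or T cell and collected on the day after plating. ORP5 and ORP8 (Osbpl5 and Osbpl8) are transfer proteins that bring phosphatidylserine to the plasma membrane. ATP11A (Atp11a) is a flippase that moves this lipid to the inner leaflet, and CDC50A (Tmem30a) is the partner subunit that it needs.

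T cell activation needs signals from the antigen receptor and from costimulatory receptors. Inside the T cell, the kinase Lck phosphorylates the antigen receptor complex, the adaptor SLAP (Sla) lowers the amount of that complex on the surface, and the adaptor SLY1 (Sash3) acts in lymphocyte development and survival. CD28 on the T cell binds CD80 and CD86 on the presenting cell, while CD40 on the presenting cell is engaged by CD40 ligand and signals through TRAF proteins to NF-kB. Macrophages and dendritic cells carry CD40, CD80 and CD86, and raise them when activated.

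Each library held 24020891 to 41543050 counts. Levels are counts-per-million (CPM) after scaling between libraries with the TMM method, given as mean ± SD. Whether the numbered replicates of a group came from separate cultures is not stated, so adjusted p-values reflect only the variation among these libraries, possibly technical. Osbpl8 stood at 337 CPM in Parental, 99.1 in ORP5/8 KD, 116 in CDC50A KD and 127 in ATP11A/C KD, so it was low in every knockdown group. Osbpl5 had 18 to 29 counts per group and was not tested. Atp11a stood at 61.4 CPM in Parental, 53.3 in ORP5/8 KD and 43.1 in CDC50A KD, and was lowest, at 21.4, in ATP11A/C KD. Tmem30a was lower than in Parental in CDC50A KD (log2 difference -0.35, edgeR adjusted p = 7.95e-05). Direct comparisons of CDC50A KD with ATP11A/C KD (-0.16, adjusted p = 0.0566) and of ORP5/8 KD with CDC50A KD (0.04, 0.600) did not pass for Tmem30a. The targeted transcripts thus did not set every group apart, and the groups are named here as labelled. Mitochondrial genes held 1.08% to 1.26% of counts in Parental and 1.36% to 1.78% in the knockdown libraries, and their part in the results was not tested.

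Markers of lymphocytes were at or near 0. Of 10 T cell markers, 7 or 8 had no count in a given group, and Cd3e, Cd3g, Cd2, Trac, Trbc1 and Trbc2 had none in any library. The summed T cell markers reached 0.0901 to 1.06 CPM per library. Summed B cell markers reached at most 0.245 CPM and natural killer cell markers at most 0.103 CPM, with Ms4a1 at 0 throughout. Of 7 dendritic cell markers, Flt3 and Ccr7 were at 0, and the list summed to 1.73 to 2.68 CPM in Parental, 2.03 to 2.98 in ORP5/8 KD, 3.22 to 3.91 in ATP11A/C KD and 2.28 to 2.68 in CDC50A KD. None of 10 macrophage markers was at 0 in any group. Their sum was 11463 to 12210 CPM in Parental, 7417 to 7832 in ORP5/8 KD, 6210 to 6604 in ATP11A/C KD and 7258 to 7560 in CDC50A KD. The sum was thus lower in all 3 knockdown groups without overlap, with lysozyme (Lyz2) as its highest marker, at 7207 CPM in Parental, 4168 in ORP5/8 KD, 2859 in CDC50A KD and 2582 in ATP11A/C KD. Without Lyz2 the sum was 4468 to 4760 CPM in Parental, 3383 to 3577 in ORP5/8 KD and 3612 to 4062 in ATP11A/C KD, while CDC50A KD, at 4415 to 4617, overlapped Parental. Of 9 macrophage markers tested, 1 was called higher and 7 lower in each of ORP5/8 KD and ATP11A/C KD, and 2 higher and 5 lower in CDC50A KD. The macrophage marker Adgre1 (F4/80) was higher in all 3 groups, at 67.3 CPM in Parental, 77.7 in ORP5/8 KD, 95.2 in CDC50A KD and 104 in ATP11A/C KD, and the receptor Csf1r was higher in CDC50A KD (2124 against 1872 CPM). The part of these markers in the results below was not tested. In these bulk samples, fewer cells with a transcript and less of it per cell cannot be told apart.

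Every one of the 7 genes differed from Parental in each knockdown group without overlap between the 4 and 4 libraries, yet no knockdown group had all 7 on one side of Parental. Of all tested genes, 17.4% were without overlap in each of the 3 comparisons, 44.0% in that of ORP5/8 KD, 48.0% in that of CDC50A KD and 33.3% in that of ATP11A/C KD. Against Parental, ORP5/8 KD was called (edgeR adjusted p under 0.05) higher for 3 genes and lower for 4, where 22.0% of all tested genes were called higher and 24.3% lower. In ATP11A/C KD 2 were higher and 5 lower (17.4% and 20.2% of all genes), and in CDC50A KD 1 was higher and 6 lower (24.3% and 26.1%). ORP5/8 KD against ATP11A/C KD gave 4 higher and 3 lower (18.2% and 20.4%). ORP5/8 KD against CDC50A KD gave 4 higher, 2 lower and 1 not called (27.5% and 29.4%). CDC50A KD against ATP11A/C KD gave 1 lower and 6 not called, with 13.5% of all genes higher and 12.7% lower. The 1763 genes called higher in that comparison fell to 1118 without ATP11A/C KD 3 and to 1169 without CDC50A KD 3. Since the genes were chosen with results known, nothing is read from these counts. The median log2 difference of the 7 genes from Parental was -0.34 in ORP5/8 KD, -0.49 in CDC50A KD and -0.62 in ATP11A/C KD, beside 0.02, -0.01 and 0.01 for all tested genes. These comparisons share the Parental libraries.

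Some of these calls rest on single libraries. Cd80 in ATP11A/C KD lost its call against Parental without Parental 1 (log2 difference 0.29), Parental 2 (0.30) or ATP11A/C KD 2 (0.26). Cd86 lost its call without ATP11A/C KD 4 in that group (-0.26) and without Parental 4 (-0.27) or CDC50A KD 3 (-0.26) in CDC50A KD. It lost both without the low-count filter. Sash3 was called in CDC50A KD against ATP11A/C KD only without CDC50A KD 4 (0.21), which brings that comparison to 2 calls. Upper-quartile scaling raised the higher calls among all called genes from 47.5% to 63.3% for ORP5/8 KD against Parental, from 47.2% to 60.5% against ATP11A/C KD and from 48.4% to 60.7% against CDC50A KD. No call of the 7 genes changed under that scaling or with the size factors of DESeq2.

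**Figure D1:**
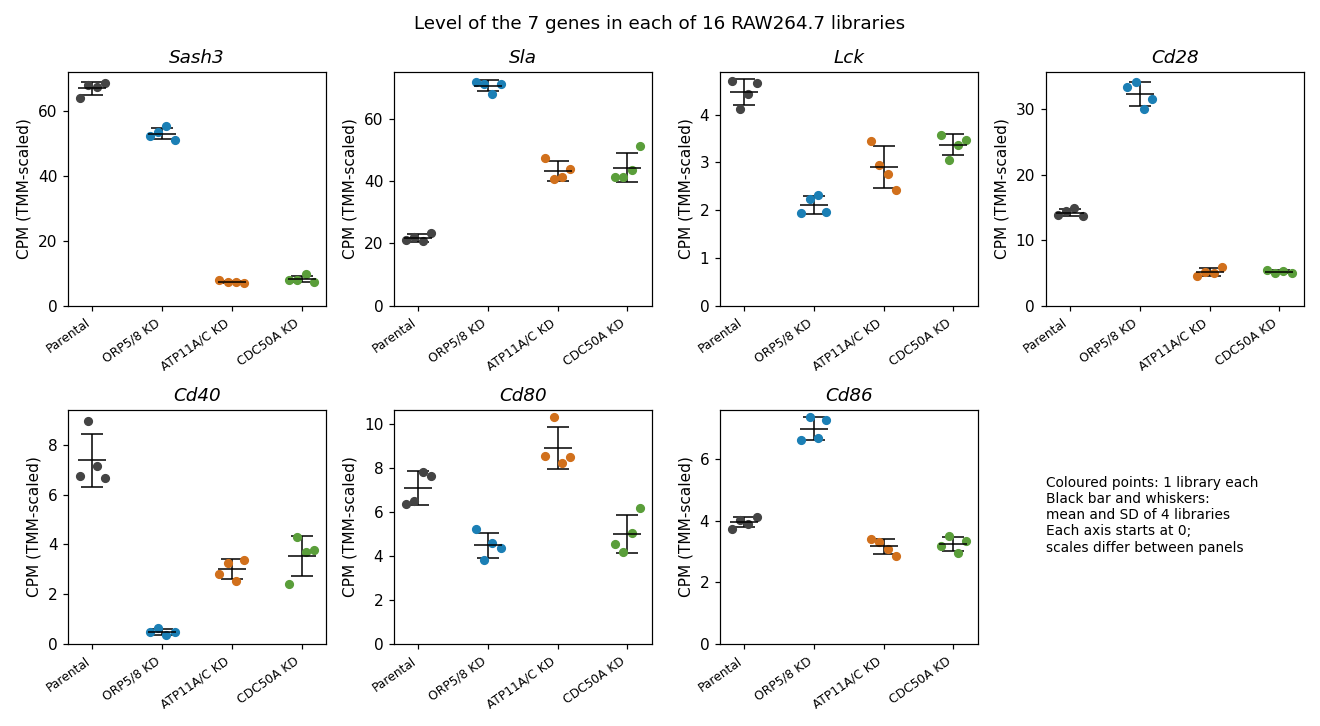
Level of each gene in CPM (vertical axes, starting at 0, scales differing between panels) in the 4 groups (horizontal axes). Each point is 1 library and black bars show mean and SD of 4; Sash3 sits at 6.95 to 9.65 CPM in all 8 libraries of ATP11A/C KD and CDC50A KD, and Cd40 at 0.344 to 0.630 in ORP5/8 KD.

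Among the intracellular adaptors, Sash3 was high in Parental and ORP5/8 KD and low in both flippase groups. Sash3 (ENSMUSG00000031101.6) lies on the plus strand of chromosome X from 48146436 to 48161565 (GRCm38, GENCODE M21), with 1 annotated transcript. Its levels were 63.9, 67.9, 67.1 and 68.4 CPM in Parental 1 to 4, and 52.1, 53.5, 55.1 and 51.0 in ORP5/8 KD 1 to 4. They were 7.84, 7.18, 7.37 and 6.95 CPM in ATP11A/C KD 1 to 4, and 7.95, 8.01, 9.65 and 7.31 in CDC50A KD 1 to 4. The highest library of either flippase group lay far under the lowest of the other groups, and the flippase groups overlapped each other. The means were 66.8 ± 2.01 in Parental, 52.9 ± 1.78 in ORP5/8 KD, 8.23 ± 0.996 in CDC50A KD and 7.33 ± 0.380 in ATP11A/C KD. ATP11A/C KD thus held 11.0% of the Parental level, a log2 difference of -3.18 ± 0.0667 (estimate ± standard error). CDC50A KD held 12.3% (-3.02 ± 0.0667) and ORP5/8 KD 79.2% (-0.34 ± 0.0569). CDC50A KD and ATP11A/C KD differed by 0.16 ± 0.0741 on the log2 scale.

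The 250 bases before the Sash3 start site are shown because this gene had the greatest distance from Parental of the 7 in the flippase groups. The sequence is chrX:48146186-48146435, plus strand, from RefSeq on GRCm38.p6. Capitals mark GGAAGT, the core letters of sites bound by ETS factors such as the macrophage factor PU.1, on either strand (here as ACTTCC).
Sash3 promoter: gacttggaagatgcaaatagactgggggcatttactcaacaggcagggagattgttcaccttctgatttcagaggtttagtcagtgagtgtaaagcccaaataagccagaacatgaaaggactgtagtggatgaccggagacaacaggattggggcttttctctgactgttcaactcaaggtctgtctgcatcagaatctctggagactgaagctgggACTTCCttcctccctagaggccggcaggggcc
Of the 32851 promoters in the RefSeq table, 19.7% hold GGAAGT in the same 250-base window. Searches on both strands for TGANTCA (the AP-1 motif, in 6.75% of promoters), CANNTG (the E-box, 66.2%), TATAAA (12.4%), GGGCGG (32.7%) and the NF-kB consensus (7.25%) gave no match here. A match is a description of letters and not a site shown to be bound.

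Of the genes beside Sash3, Xpnpep2 had at most 1 count per group and was not tested. Zdhhc9, a palmitoyltransferase gene on the minus strand, has its nearer edge, where the gene ends, 10403 bases to the right of Sash3. On the log2 scale Zdhhc9 differed from Parental by -0.24 in ATP11A/C KD (edgeR adjusted p = 0.000134), -0.26 in CDC50A KD (3.24e-05) and -0.18 in ORP5/8 KD (0.00165). By root-mean-square difference of gene-centred log2 levels over the 16 libraries, the nearest genes to Sash3 were Plxdc1 (0.52), Opcml (0.53) and Tbc1d9 (0.53). Sash3 itself varied by 1.47 around its mean on that scale. Such nearest genes, here and below, were picked for likeness over these same libraries. A shared order of groups therefore follows from the choice and is no separate result. Plxdc1 stood at 14.9 CPM in Parental, 7.18 in ORP5/8 KD, 2.47 in CDC50A KD and 2.30 in ATP11A/C KD. Of the 3, Plxdc1 was lower in ORP5/8 KD by a wider margin than Sash3, while Opcml was higher there (26.9 CPM against 22.5 in Parental).

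Sla was higher in all 3 knockdown groups and highest in ORP5/8 KD. Sla (ENSMUSG00000022372.14) is on the minus strand of chromosome 15 from 66780819 to 66831829, inside the thyroglobulin gene Tg on the opposite strand, with 0 bases of shared exon. Its levels were 20.9, 22.0, 20.6 and 23.2 CPM in Parental 1 to 4, and 71.9, 71.3, 67.9 and 71.3 in ORP5/8 KD 1 to 4. They were 47.4, 40.6, 41.2 and 43.8 CPM in ATP11A/C KD 1 to 4, and 41.3, 41.4, 43.4 and 51.2 in CDC50A KD 1 to 4. Parental, ORP5/8 KD and the flippase groups formed 3 separate levels, with the flippase groups overlapping. Sla in ORP5/8 KD (70.6 ± 1.84 CPM) was 3.26-fold the Parental level (21.7 ± 1.19), a log2 difference of 1.70 ± 0.0667. ATP11A/C KD (43.2 ± 3.08) was 1.99-fold and CDC50A KD (44.3 ± 4.66) 2.05-fold, with log2 differences of 1.00 ± 0.0672 and 1.03 ± 0.0674. ORP5/8 KD exceeded ATP11A/C KD by 0.71 ± 0.0631 and CDC50A KD by 0.67 ± 0.0634.

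Tg summed to 16 counts over Parental, 28 over ORP5/8 KD, 22 over ATP11A/C KD and 20 over CDC50A KD, against 2824 to 11207 for Sla, so few reads were assigned to the overlapping gene. The kit keeps strand, and the name of the deposited table says stranded. The genes nearest to Sla over the 16 libraries were Stc2 (root-mean-square difference 0.14), Sort1 (0.15) and Gstp1 (0.20), beside 0.61 for Sla around its own mean. Stc2, a secreted stanniocalcin, stood at 11.5 CPM in Parental, 35.1 in ORP5/8 KD, 19.6 in CDC50A KD and 20.9 in ATP11A/C KD. Sort1, the sorting receptor sortilin, stood at 11.5, 38.5, 23.4 and 27.1 CPM in the same order. Picked for likeness, both genes were, like Sla, highest in ORP5/8 KD and lowest in Parental.

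Lck transcripts were few in every group and lower in each knockdown group. Lck (ENSMUSG00000000409.14) is on the minus strand of chromosome 4 from 129548344 to 129573641, and each library held 70 to 155 counts. Its levels were 4.71, 4.11, 4.44 and 4.67 CPM in Parental 1 to 4, and 1.95, 2.24, 2.31 and 1.96 in ORP5/8 KD 1 to 4. They were 3.46, 2.94, 2.76 and 2.42 CPM in ATP11A/C KD 1 to 4, and 3.58, 3.06, 3.37 and 3.47 in CDC50A KD 1 to 4. ORP5/8 KD was the lowest group and overlapped neither of the others, while ATP11A/C KD and CDC50A KD overlapped. ORP5/8 KD (2.11 ± 0.189) held 47.2% of the Parental level (4.48 ± 0.277), ATP11A/C KD (2.90 ± 0.436) 64.7% and CDC50A KD (3.37 ± 0.221) 75.2%. The log2 differences from Parental were -1.08 ± 0.121, -0.62 ± 0.119 and -0.40 ± 0.118.

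Lck has a pair of promoters in the RefSeq table, a far one and one nearer to the coding exons, and gene counts do not say which was used. Both are shown because Cd3e and Cd3g, whose products Lck phosphorylates in T cells, had no count while Lck itself was counted. They are chr4:129573642-129573891 and chr4:129558373-129558622, minus strand, RefSeq on GRCm38.p6, written in the sense of the transcript. Capitals again mark GGAAGT.
Lck far promoter: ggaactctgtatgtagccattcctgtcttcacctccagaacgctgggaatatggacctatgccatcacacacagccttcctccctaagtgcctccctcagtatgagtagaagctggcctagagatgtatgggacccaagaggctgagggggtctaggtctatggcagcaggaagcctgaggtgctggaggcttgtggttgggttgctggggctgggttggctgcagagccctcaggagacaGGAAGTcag
Lck near promoter: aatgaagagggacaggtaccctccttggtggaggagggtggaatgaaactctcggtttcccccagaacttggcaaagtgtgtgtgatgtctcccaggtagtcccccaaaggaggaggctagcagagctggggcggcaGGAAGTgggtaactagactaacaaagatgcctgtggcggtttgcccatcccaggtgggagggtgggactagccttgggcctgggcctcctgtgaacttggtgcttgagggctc
Each holds 1 GGAAGT, and the near promoter also holds 1 CANNTG and 1 GGGCGG. Neither matched any of the other motifs searched. Fam167b, the neighbour 3173 bases away, differed from Parental by -0.58 in CDC50A KD (edgeR adjusted p = 2.10e-08), -0.40 in ORP5/8 KD (2.65e-06) and -0.33 in ATP11A/C KD (5.56e-05). It was thus lower in all 3 groups, as Lck was, but with CDC50A KD farthest from Parental.

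The nearest genes to Lck were H2-K1, Dtx3l and S100a11, each with a root-mean-square difference of 0.12, beside 0.40 for Lck around its mean and 0.12 for Lck within groups. H2-K1, a class I antigen-presenting molecule, stood at 191 CPM in Parental, 96.9 in ORP5/8 KD, 155 in CDC50A KD and 136 in ATP11A/C KD. Dtx3l, a ubiquitin ligase, stood at 140, 63.9, 102 and 89.1 CPM in that order. The means of Lck, H2-K1 and Dtx3l ran in the order Parental, CDC50A KD, ATP11A/C KD, ORP5/8 KD, as picking by likeness favours. CDC50A KD and ATP11A/C KD overlapped for Lck, so its order between them is not established.

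Cd28, the receptor for CD80 and CD86, was higher than Parental in ORP5/8 KD and lower in both flippase groups. Cd28 (ENSMUSG00000026012.2) is on the plus strand of chromosome 1 from 60716800 to 60773359. Its levels were 13.8, 14.5, 14.9 and 13.7 CPM in Parental 1 to 4, and 33.3, 34.2, 30.0 and 31.6 in ORP5/8 KD 1 to 4. They were 4.55, 5.05, 4.99 and 5.95 CPM in ATP11A/C KD 1 to 4, and 5.41, 4.95, 5.30 and 4.97 in CDC50A KD 1 to 4. The flippase groups overlapped each other and no other group. ORP5/8 KD (32.3 ± 1.89) was 2.27-fold the Parental level (14.2 ± 0.568), a log2 difference of 1.18 ± 0.0703. ATP11A/C KD (5.14 ± 0.589) held 36.1% and CDC50A KD (5.16 ± 0.232) 36.2%, with log2 differences of -1.48 ± 0.0785 and -1.46 ± 0.0793. Between knockdown groups, ORP5/8 KD was 6.28-fold ATP11A/C KD and 6.26-fold CDC50A KD, while CDC50A KD and ATP11A/C KD differed by 0.01 ± 0.0850 on the log2 scale.

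Ctla4, the inhibitory receptor for the same ligands and the next gene to the right of Cd28, had at most 1 count summed over a group. Raph1, the gene on the other side, differed from Parental by 0.25 in ORP5/8 KD (edgeR adjusted p = 0.00362) and -0.30 in CDC50A KD (0.000915). In ATP11A/C KD its difference of -0.13 did not pass (0.133), except without ATP11A/C KD 1 (-0.18, 0.0445). The nearest genes to Cd28 by level were Smo (0.31), Amz1 (0.35) and Aatk (0.36), beside 1.10 for Cd28 around its mean. Smo, the signal transducer of the Hedgehog pathway, stood at 1.75 CPM in Parental, 3.84 in ORP5/8 KD, 0.698 in CDC50A KD and 0.867 in ATP11A/C KD. All of these, picked for likeness, were highest in ORP5/8 KD and lower than Parental in both flippase groups.

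Cd40, the presenting-cell receptor for CD40 ligand, was lower in all 3 knockdown groups and lowest in ORP5/8 KD. Cd40 (ENSMUSG00000017652.16) is on the plus strand of chromosome 2 from 165055627 to 165072948. Its levels were 6.77, 8.98, 7.18 and 6.69 CPM in Parental 1 to 4, and 0.473, 0.630, 0.344 and 0.483 in ORP5/8 KD 1 to 4. They were 2.82, 3.27, 2.52 and 3.38 CPM in ATP11A/C KD 1 to 4, and 2.42, 4.29, 3.68 and 3.77 in CDC50A KD 1 to 4. The ORP5/8 KD libraries held only 14 to 27 counts each, 77 in sum, which makes their ratio the least precise of the 7 genes. ORP5/8 KD (0.483 ± 0.117) held 6.52% of the Parental level (7.40 ± 1.07), or 15.3-fold less, a log2 difference of -3.93 ± 0.198. ATP11A/C KD (3.0 ± 0.401) held 40.5% and CDC50A KD (3.54 ± 0.794) 47.8%, with log2 differences of -1.31 ± 0.157 and -1.08 ± 0.157. ORP5/8 KD was below ATP11A/C KD by -2.62 ± 0.209 and below CDC50A KD by -2.85 ± 0.208, and the flippase groups overlapped (0.23 ± 0.165).

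The nearest genes to Cd40 were Irf7 (0.28), Isg20 (0.35) and Ifi44l (0.35), beside 1.37 for Cd40 around its mean. Irf7 stood at 632 CPM in Parental, 44.0 in ORP5/8 KD, 347 in CDC50A KD and 249 in ATP11A/C KD. Isg20 stood at 26.4, 1.85, 16.9 and 8.93 CPM and Ifi44l at 215, 26.2, 128 and 111 CPM in that order. The means of all these genes had the order of the Cd40 means, as picking by likeness favours. For Cd40 the order between the overlapping flippase groups is not established. Ncoa5, the neighbour to the left of Cd40, was higher than Parental by 0.19 in ATP11A/C KD (edgeR adjusted p = 0.000811) and 0.18 in CDC50A KD (0.00105), where Cd40 was lower.

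**Figure D2:**
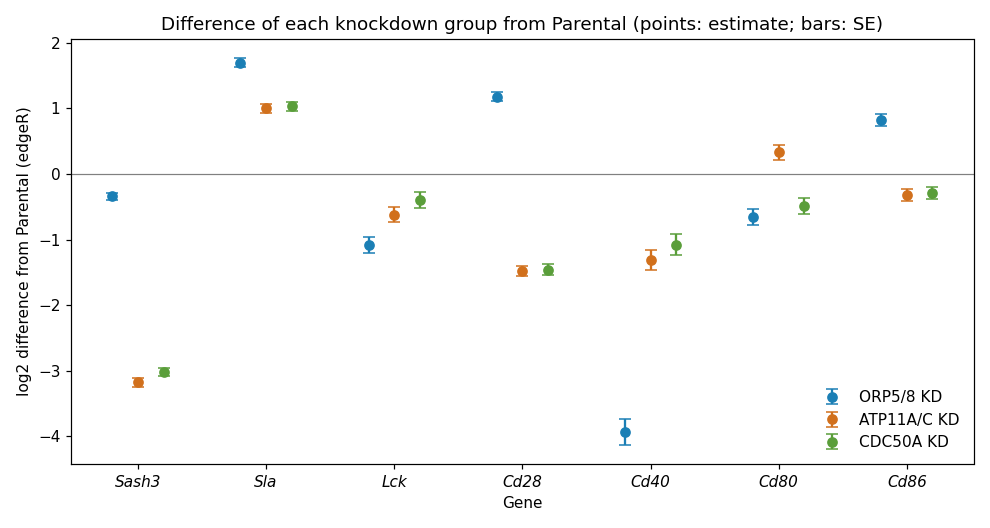
Log2 difference of each knockdown group from Parental (vertical axis) for the 7 genes (horizontal axis), with points for the edgeR estimate and bars for its standard error. Sash3 in the flippase groups (-3.18 and -3.02) and Cd40 in ORP5/8 KD (-3.93) lie farthest below 0, and Sla in ORP5/8 KD (1.70) farthest above.

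Cd80 and Cd86, the B7 ligands of CD28, lay on opposite sides of Parental in ORP5/8 KD and ATP11A/C KD, and both were lower in CDC50A KD. Cd80 (ENSMUSG00000075122.5) is on the plus strand of chromosome 16 from 38455561 to 38496335, and Cd86 (ENSMUSG00000022901.13) on the minus strand of the same chromosome from 36603869 to 36666081. Cd80 stood at 6.37, 6.49, 7.82 and 7.65 CPM in Parental 1 to 4, and at 5.20, 3.80, 4.57 and 4.35 in ORP5/8 KD 1 to 4. It stood at 8.53, 10.3, 8.21 and 8.50 CPM in ATP11A/C KD 1 to 4, and at 4.56, 4.16, 5.05 and 6.17 in CDC50A KD 1 to 4. Cd80 was thus highest in ATP11A/C KD, and ORP5/8 KD and CDC50A KD overlapped each other under Parental. ATP11A/C KD (8.89 ± 0.956) stood at 125% of Parental (7.08 ± 0.761), with a log2 difference of 0.33 ± 0.119. ORP5/8 KD (4.48 ± 0.579) held 63.3% (-0.66 ± 0.124) and CDC50A KD (4.98 ± 0.869) 70.4% (-0.49 ± 0.125). Cd80 was the only one of the 7 genes for which CDC50A KD and ATP11A/C KD did not overlap, at a log2 difference of -0.82 ± 0.122. Of all tested genes, 22.1% did not overlap between these groups.

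The Cd80 promoter is shown because this gene set the flippase groups apart. It is chr16:38458683-38458932, plus strand, RefSeq on GRCm38.p6, and lies inside the span that GENCODE gives the gene. Capitals mark TGANTCA, the loose form of the AP-1 motif that allows any central base, which is T here.
Cd80 promoter: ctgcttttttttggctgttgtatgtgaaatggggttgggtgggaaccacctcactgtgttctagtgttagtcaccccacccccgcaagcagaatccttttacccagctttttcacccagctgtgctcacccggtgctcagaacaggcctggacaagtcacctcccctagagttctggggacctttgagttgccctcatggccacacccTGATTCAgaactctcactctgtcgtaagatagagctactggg
Besides that 1 match it holds 1 E-box and none of the other motifs searched. The neighbours of Cd80, Adprh and Timmdc1, lie 2857 and 2011 bases away. Timmdc1 was higher than Parental in CDC50A KD (log2 difference 0.30, edgeR adjusted p = 0.00262), where Cd80 was lower, and did not pass in ORP5/8 KD (0.01, 0.942) or ATP11A/C KD (0.07, 0.489). The nearest genes to Cd80 by level were Lrp11 (0.21), Col4a5 (0.23) and Smug1 (0.24), beside 0.42 for Cd80 around its mean.

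Cd86 was higher in ORP5/8 KD and slightly lower in both flippase groups. It stood at 3.75, 4.02, 3.89 and 4.13 CPM in Parental 1 to 4, and at 6.65, 7.38, 6.71 and 7.28 in ORP5/8 KD 1 to 4. It stood at 3.41, 3.30, 3.10 and 2.85 CPM in ATP11A/C KD 1 to 4, and at 3.17, 3.50, 2.97 and 3.34 in CDC50A KD 1 to 4. All 4 ORP5/8 KD libraries lay above all others, and the flippase groups overlapped. ORP5/8 KD (7.0 ± 0.376) was 1.77-fold the Parental level (3.95 ± 0.162), a log2 difference of 0.83 ± 0.0919. ATP11A/C KD (3.17 ± 0.247) held 80.2% (-0.32 ± 0.0976) and CDC50A KD (3.24 ± 0.228) 82.1% (-0.29 ± 0.0986). The nearest genes to Cd86 by level were Cldn11 (0.11), Ctsf (0.12) and Napsa (0.12), beside 0.46 for Cd86 around its mean. Ctsf, the lysosomal protease cathepsin F, stood at 37.4 CPM in Parental, 60.9 in ORP5/8 KD, 28.3 in CDC50A KD and 31.5 in ATP11A/C KD. Napsa, the aspartic protease napsin A, stood at 50.5, 95.9, 41.5 and 36.4 CPM in that order. As with Cd86, ORP5/8 KD was the highest group for both proteases, which were picked for likeness to it.

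The balance of the B7 ligand transcripts turned over in ORP5/8 KD, and protein was not measured in these libraries. Cd80 had 1.79 ± 0.176 counts per Cd86 count in Parental (1.61 to 2.01 over 4 libraries) and 0.644 ± 0.114 in ORP5/8 KD (0.516 to 0.783). The ratio was 2.81 ± 0.286 in ATP11A/C KD (2.50 to 3.12) and 1.54 ± 0.291 in CDC50A KD (1.19 to 1.85). Only the ORP5/8 KD libraries had more Cd86 than Cd80 counts, and only CDC50A KD overlapped Parental. All annotated exons of the genes cover 3.70 and 3.66 kb, so the ratio per that length is nearly that of the counts. Both genes were picked with results known, and the ratio is a description.

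**Figure D3:**
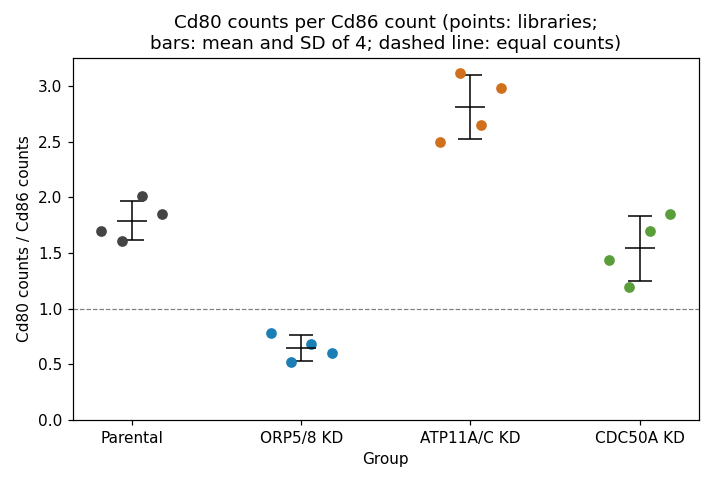
Cd80 counts per Cd86 count (vertical axis, from 0) in the 4 groups (horizontal axis). Points are libraries, bars mean and SD of 4, and the dashed line marks equal counts; the ORP5/8 KD libraries sit at 0.516 to 0.783 and the ATP11A/C KD libraries at 2.50 to 3.12.

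Levels between genes were compared per kb of exon, counting every exon of all annotated transcripts of a gene. Sla has 5 annotated transcripts over 9186 bases, Cd28 3 over 6122 and Sash3 1 over 2677. Which transcripts were expressed was not tested, so the order between genes depends on the annotation. In Parental, Sash3 led at 25.0 ± 0.751 CPM per kb, followed by Sla (2.36), Cd28 (2.33), Cd40 (2.17) and Cd80 (1.91), whose neighbours in this order overlapped, and then by Lck (1.53) and Cd86 (1.08). ORP5/8 KD kept Sash3 (19.8), Sla (7.68) and Cd28 (5.27) on top, and Cd86 (1.91), Cd80 (1.21), Lck (0.722) and Cd40 (0.142) followed without overlap between neighbours. In ATP11A/C KD, Sla led (4.71), then Sash3 (2.74) and Cd80 (2.40), which overlapped. The remaining Lck (0.989), Cd40 (0.880), Cd86 (0.865) and Cd28 (0.839) overlapped from each to the next. CDC50A KD had Sla (4.83) and Sash3 (3.08) on top, and Cd80 (1.35), Lck (1.15), Cd40 (1.04), Cd86 (0.886) and Cd28 (0.842) overlapping from each to the next. On this scale Sash3 was thus first in Parental and ORP5/8 KD and second to Sla in both flippase groups, and Cd28 was last there.

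**Figure D4:**
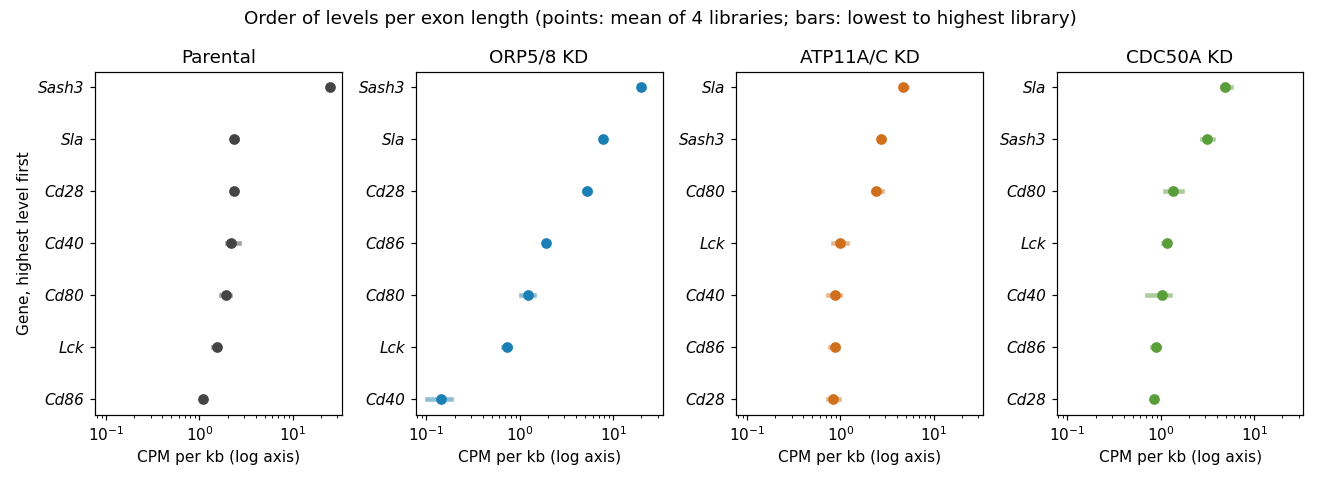
Level per exon length in CPM per kb (horizontal log axes) of the 7 genes (vertical axes, highest first), with 1 panel per group. Points are means of 4 libraries and bars run from the lowest to the highest library; Sash3 leads at 25.0 and 19.8 in Parental and ORP5/8 KD, and Sla leads at 4.71 and 4.83 in the flippase groups.

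The other genes of the pathways were taken from 6 lists of 141 genes, of which 140 were in the table and 94 were tested. Against Parental, 17 of the 94 were called higher and 47 lower in ORP5/8 KD (18.1% and 50.0%), 16 and 43 in ATP11A/C KD (17.0% and 45.7%), and 15 and 47 in CDC50A KD (16% and 50.0%). All tested genes had the shares given above for the same comparisons, 20.2% to 26.1% for lower calls. The median log2 difference over the 94 genes was -0.20, -0.12 and -0.16, near 0 for all genes. These comparisons share the Parental libraries and the lists were assembled with earlier results known, so the counts describe the lists.

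**Figure D5:**
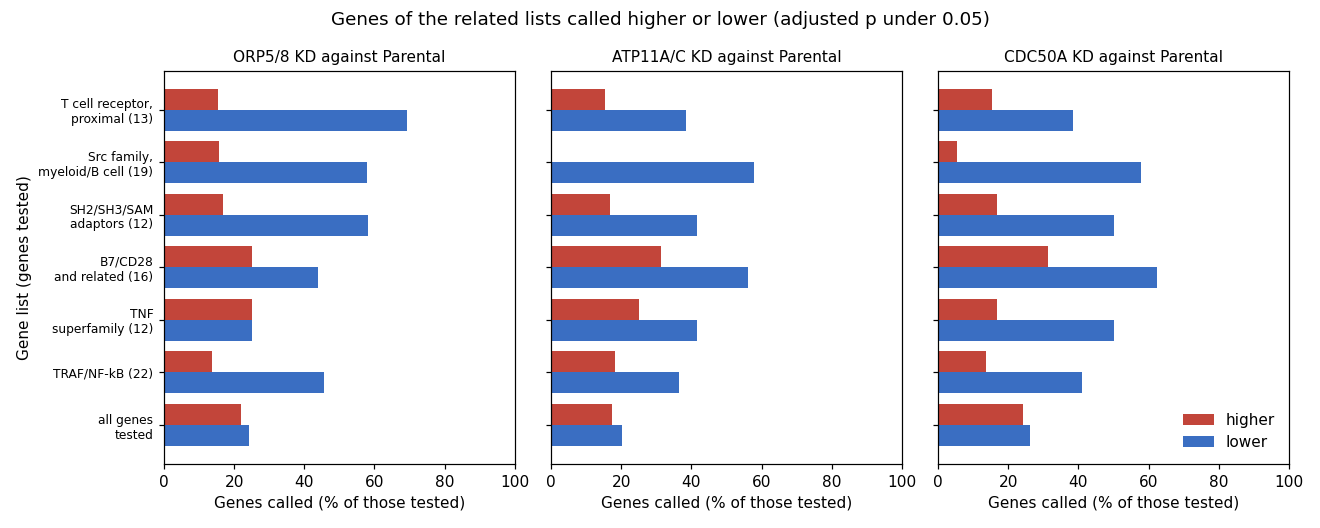
Share of tested genes of each list called higher (red) or lower (blue) at an adjusted p under 0.05 (horizontal axes, percent), with 1 panel per knockdown group against Parental and all tested genes at the bottom. Lower calls outnumber higher calls in every list and panel except the TNF superfamily in ORP5/8 KD, at 3 each.

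Of the T cell receptor complex and its proximal signalling, the receptor chains themselves were below the filter. Of 31 genes, 13 were tested, and the kinase Zap70 (at most 0.0301 CPM) and the adaptor Lat (at most 0.383 CPM) were also too low. In ORP5/8 KD 2 rose and 9 fell, and in each flippase group 2 rose and 5 fell. The 2 that rose in ORP5/8 KD were Csk (0.17, edgeR adjusted p = 0.0289) and Plcg1 (0.19, 0.0405). Each lost its call without any of several single libraries, and so did the rise of Csk in ATP11A/C KD (0.18, 0.0293). Lcp2, which encodes the adaptor SLP-76, fell from 157 ± 3.66 to 98.9 ± 0.956 CPM in ORP5/8 KD (log2 difference -0.67, edgeR adjusted p = 2.09e-12). Fyn, the Src-family kinase that works beside Lck in T cells, fell by 0.79 there (9.70e-11). Ptpn22, a phosphatase that acts on Src-family kinases, fell by 0.47 in ATP11A/C KD (8.75e-07) and by 0.50 in CDC50A KD (3.51e-07). Its call in ORP5/8 KD (-0.16, 0.0190) was lost without Parental 1 or 2, or ORP5/8 KD 1 or 3, and with upper-quartile scaling (-0.09). Pag1, which brings the inhibitory kinase Csk to the membrane, rose by 0.24 (0.00124) and 0.27 (0.000298) in those groups.

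The Src-family kinases and myeloid or B cell counterparts fell more often than they rose. Of 19 tested genes, 3 rose and 11 fell in ORP5/8 KD, 0 and 11 in ATP11A/C KD, and 1 and 11 in CDC50A KD. Fgr, a myeloid Src-family kinase, fell in all 3 groups, by 1.20 on the log2 scale in ORP5/8 KD (edgeR adjusted p = 1.17e-12), 0.89 in CDC50A KD (3.06e-10) and 1.05 in ATP11A/C KD (2.21e-11). Lat2, the adaptor that stands in for LAT outside T cells, fell by 0.80 in ORP5/8 KD (6.65e-14), 0.46 in CDC50A KD (1.14e-09) and 0.61 in ATP11A/C KD (1.34e-11). Syk, the kinase that takes the place of ZAP-70 in myeloid cells, rose by 0.54 in ORP5/8 KD (6.90e-08).

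Adaptors of the SH2, SH3 and SAM domain kind, to which Sla and Sash3 belong, gave 2 higher and 7 lower of 12 tested in ORP5/8 KD, 2 and 5 in ATP11A/C KD, and 2 and 6 in CDC50A KD. Sash1, a paralogue of Sash3, fell in all 3 groups, by 0.86 (edgeR adjusted p = 4.55e-11), 0.50 (2.85e-07) and 0.55 (8.09e-08). Its levels were 74.7 CPM in Parental, 41.3 in ORP5/8 KD, 51.0 in CDC50A KD and 52.7 in ATP11A/C KD, so the group farthest from Parental was ORP5/8 KD and not, as for Sash3, a flippase group. Dok2, a negative regulator of tyrosine kinase signalling, fell by 1.28 in ORP5/8 KD (4.04e-15) and rose by 0.46 in CDC50A KD (7.90e-08) and 0.27 in ATP11A/C KD (0.000106). ORP5/8 KD was below CDC50A KD for Dok2 by -1.74 in the direct comparison (9.39e-17). Sh2d3c rose by 1.19 (1.25e-09), 0.93 (1.12e-07) and 1.15 (3.71e-09). Sla2, the closest relative of Sla, reached at most 0.109 CPM and was not tested.

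Among other B7 and CD28 family genes and related receptors, 16 of 27 in the table were tested. In ORP5/8 KD 4 rose and 7 fell, in ATP11A/C KD 5 and 9, and in CDC50A KD 5 and 10. Lgals9, the ligand galectin-9, fell from 228 ± 2.73 CPM to 50.9 ± 3.29 in ORP5/8 KD (log2 difference -2.16, edgeR adjusted p = 2.13e-18), and by 0.89 (5.65e-12) and 0.51 (3.75e-08) in ATP11A/C KD and CDC50A KD. Its receptor Havcr2 rose by 0.57 in ORP5/8 KD (1.36e-08), 0.32 in CDC50A KD (4.64e-05) and 0.65 in ATP11A/C KD (3.11e-09). Cd274, which encodes the inhibitory ligand PD-L1, fell by 1.52 in CDC50A KD (5.76e-08), 0.91 in ATP11A/C KD (3.63e-05) and 0.91 in ORP5/8 KD (2.32e-05). Pdcd1, its receptor PD-1, rose by 1.24 in CDC50A KD (1.21e-06) and 0.65 in ATP11A/C KD (0.00240).

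Icos, the inducible relative of Cd28, rose by 0.99 in ORP5/8 KD (edgeR adjusted p = 5.57e-06). It also rose by 0.67 in CDC50A KD (0.000642) and by 0.77 in ATP11A/C KD (0.000192), where Cd28 itself was lower. Icos stood at 1.67 ± 0.171 CPM in Parental, 3.34 ± 0.280 in ORP5/8 KD, 2.65 in CDC50A KD and 2.87 ± 0.365 in ATP11A/C KD. Cd84, a self-binding receptor of the SLAM family, rose by 1.42 in ORP5/8 KD (3.15e-06) and fell by 0.72 in CDC50A KD (0.0100) and 1.03 in ATP11A/C KD (0.000907). ORP5/8 KD was above ATP11A/C KD for Cd84 by 2.45 (4.66e-09) and above CDC50A KD by 2.14 (2.17e-08). Btla, an inhibitory receptor, had no count in Parental. Set against 3 counts over the Parental group, Btla was 9.10-fold higher in ATP11A/C KD (0.210 CPM, 31 counts) and 30.4-fold higher in CDC50A KD (0.701 CPM, 95 counts). The 3 counts allow for counting error in Parental but not in the knockdown groups, so these folds are not lower bounds.

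Of the TNF superfamily ligands and receptors to which CD40 belongs, 12 of 23 were tested, with 3 higher and 3 lower in ORP5/8 KD, 3 and 5 in ATP11A/C KD, and 2 and 6 in CDC50A KD. Tnfrsf11a, the receptor RANK, fell by 0.86 in ORP5/8 KD (edgeR adjusted p = 1.27e-09), 0.41 in CDC50A KD (4.64e-05) and 0.32 in ATP11A/C KD (0.000916). Tnfsf9, the ligand of 4-1BB, fell by 0.76 in ORP5/8 KD (4.20e-09). It was called higher in ATP11A/C KD (log2 difference 0.18, 0.0302), but not without Parental 1 or 4 or ATP11A/C KD 3. Tnfsf13b, the B cell survival factor BAFF, fell by 0.98 (9.46e-05), 1.00 (0.000121) and 0.78 (0.000906) in the 3 groups. Tnfrsf13b, a receptor for BAFF, rose from 0.0333 CPM in Parental to 0.253 in ORP5/8 KD (0.00156), 0.717 in CDC50A KD (3.91e-06) and 0.518 in ATP11A/C KD (3.34e-05), all at few counts.

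Below CD40, the TRAF and NF-kB genes gave 3 higher and 10 lower of 22 tested in ORP5/8 KD, 4 and 8 in ATP11A/C KD, and 3 and 9 in CDC50A KD. Traf1, an NF-kB target that takes part in CD40 signalling, fell from 19.3 ± 1.74 to 5.40 ± 0.258 CPM in ORP5/8 KD (log2 difference -1.84, edgeR adjusted p = 1.15e-12). Birc3, the ubiquitin ligase cIAP2, fell by 0.97 there (5.57e-13), 0.25 in CDC50A KD (0.000254) and 0.32 in ATP11A/C KD (1.61e-05). Tnfaip3, the NF-kB inhibitor A20, fell by 1.04 in ORP5/8 KD (5.74e-11). In the flippase groups Tnfaip3 fell by 0.33 in ATP11A/C KD (0.000633) and by 0.54 in CDC50A KD (1.65e-06). Traf3, which restrains signalling from CD40, rose by 0.17 in ORP5/8 KD (0.00242) and 0.28 in ATP11A/C KD (1.58e-05). In direct comparisons of ORP5/8 KD, Traf1 differed by -1.49 from ATP11A/C KD (8.73e-11) and by -1.76 from CDC50A KD (3.70e-12), so its lowest group was that of Cd40.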

How the data were processed

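RNA was measured in 16 libraries of RAW264.7 cells, which the labels put in 4 groups. Per the labels' protocols, stranded mRNA libraries were made from 500 ng of RNA and read as 100 bp pairs. The tools in the submitters' processing notes are Trim Galore 0.5.0, STAR 2.7.5a, Picard and RSEM, and the build is mm10. The authors deposited an expected count per gene, with decimals in 4.64% of values and in none of the 7 genes. They were rounded to whole counts, and 92 spike-in records were left out.

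Low genes were removed with filterByExpr (minimum count 10). TMM scaling and the quasi-likelihood test of edgeR 4.0.16 in R 4.3.3 were applied to all 16 libraries with a term for group, and p-values were Benjamini-Hochberg adjusted over the 13107 tested genes per comparison, called under 0.05. The script was tested on simulated data. The 7 genes and the lists were chosen with earlier results of these data known. Of the lists, the text draws on up to 3 called genes per direction with the smallest adjusted p against Parental, and 1 between knockdown groups. Likeness used log2 (CPM + 0.1). Gene positions came from GENCODE M21 and promoters from RefSeq, which matched Sash3, Lck and Cd80. Libraries of a group differed beyond sampling noise, so none was a repeat deposit. Alternatives were other scaling (size factors of DESeq2, upper quartile), other filters (none, or 1 CPM in 4 libraries), a replicate block, a fit of only the groups compared, DESeq2 1.42.0 with its Wald test, and each library left out. Values of some listed genes are not reported here.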

Additional observations from a re-analysis of the deposited data

Results flagged for a closer look

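In 28 sets of 4 libraries (7 genes in 4 groups), 2 had a library whose gap to the nearest other exceeded Dixon's critical share of the range for 4 values. About 1 in 20 sets is marked by chance. Sla in ORP5/8 KD 3 stood at 67.9 CPM, below the other libraries of its group at 71.3 to 71.9. Cd80 in ATP11A/C KD 2 stood at 10.3 CPM, above the others at 8.21 to 8.53.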

How the results depend on the processing

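No called result changed direction under any alternative that was run. Of the total counts of called genes, 275 values under alternatives stayed within 1.5 times the main count and 1 did not. Of the 7 genes called in CDC50A KD against ATP11A/C KD, the count was 1, and 1 to 2 when a library was left out. By direction, the list genes called lower in CDC50A KD against ATP11A/C KD went from 17 to 11 without ATP11A/C KD 3. Among the 7 genes, the 2 called higher in ATP11A/C KD against Parental went to 1 without Parental 1, Parental 2 or ATP11A/C KD 2. Shifts in the differences of the 7 genes were set against the pooled SD of log2 (CPM + 0.1) within the groups compared, not the standard error. By that measure 962 values moved by less and 4 by more. Those 4 were all in ORP5/8 KD against Parental with upper-quartile scaling: Sash3 went to -0.26, Sla to 1.78, Cd28 to 1.25 and Cd86 to 0.90. Without the low-count filter Cd86 lost its call against Parental in ATP11A/C KD (-0.32) and CDC50A KD (-0.28). Among the other named genes 5103 values stayed on their side of the threshold, 79 lost a call and 30 gained one. Whether the replicate numbers pair the samples is not settled by the correlations, which ran from -0.21 to 0.12 between libraries of the same number. Against Parental, replicates 2 and 4 of ORP5/8 KD and of CDC50A KD, and 3 and 4 of ATP11A/C KD, correlated best with their own number. The other libraries did not, and neither did any of CDC50A KD against ATP11A/C KD. With the numbers as a replicate block, 63 of the 94 list genes were called against Parental in ORP5/8 KD, 61 in CDC50A KD and 59 in ATP11A/C KD, beside 64, 62 and 59 without it. The block gave 60 for ORP5/8 KD against ATP11A/C KD, 69 for ORP5/8 KD against CDC50A KD and 30 for CDC50A KD against ATP11A/C KD, beside 60, 72 and 32, and changed no call of the 7 genes. Depth limits Cd40 in ORP5/8 KD most, with 14 to 27 counts per library.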
